A study of Mus musculus with 21 samples.

Results

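The 10 genes described here encode the mouse MHC class II antigen presentation machinery: the classical class II chains (H2-Aa, H2-Ab1, H2-Eb1), the invariant chain (Cd74), the peptide editor DM (H2-DMa, H2-DMb1, H2-DMb2), its inhibitor DO (H2-Oa, H2-Ob) and the class II transactivator (Ciita). They were taken by GENCODE symbol, by a rule that uses no measured value, and are 10 of the 56953 genes counted. The list was drawn up with earlier results of these data known. RNA was sequenced from B cells of the peritoneal cavity of C57BL/6 mice, sorted into B-1a, B-1b and B-2. The mice were either wild type (WT) or lacked TET2 in every cell from the germline (TET2-KO). TET2 is an enzyme that oxidizes methylated cytosine in DNA, and the knockout deletes exons of its catalytic region. By label, B-1a cells had 4 libraries of each genotype, B-1b cells had 4 from WT and 3 from TET2-KO mice, and B-2 cells had 2 from WT and 4 from TET2-KO mice, which makes 21. B-1a cells were gated as IgD-low, CD23-low, B220-low and CD5+, and B-1b cells by the same gate without CD5. The gate of the B-2 libraries is not given in the sources used here. The study calls its mice young, and their exact ages and sexes are not given in the sources used here. The study counts n in mice, and its numbers for B-1a and B-1b cells equal the numbers of libraries here, but the labels tie no library to a mouse. P-values therefore measure the spread between these libraries, which may in part be technical.

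MHC class II molecules are heterodimers of an alpha and a beta chain that carry peptides from endocytosed protein to the cell surface, where CD4 T cells recognise them. The invariant chain fills the groove of a new class II dimer and guides it to the endosome. DM then helps peptides to exchange there, and DO, which in the periphery is found mainly in B cells, restrains DM. CIITA binds no DNA itself. It is recruited by factors that sit on the X and Y boxes shared by class II promoters, and it is switched off when B cells become plasma cells. C57BL/6 mice make I-A from H2-Aa and H2-Ab1, and carry no functional H2-Ea, so that the H2-Eb1 chain has no partner to reach the surface with.

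The shared promoter elements are shown for the genes on which the results below turn and for those that hold the ordered pair described here. RefSeq windows of 300 bases (250 before and 50 after the start of transcription, assembly GRCm38.p6) were at hand for 7 of the 10 genes, with 2 windows for H2-DMa. They were searched on both strands for ATTGG, the core of the Y box, and for ACNGATG, letters within the X box. These motifs cannot share bases with each other. ATTGG was in a window of 7 of the 7 genes, against 37.4% of all 32851 windows, and ACNGATG was in a window of 5 (H2-Oa, H2-DMb2, H2-DMb1, H2-Aa and H2-Eb1), against 9.85%. The ordered pair, ACNGATG followed on the same strand by ATTGG within 30 bases, was in the windows of H2-DMb2, H2-DMb1 and H2-Eb1, and in 76 windows or 0.231% of all. In the stretches below, each written 5′ to 3′ on the strand of its gene, capitals mark these motifs.
H2-DMb2, chr17:34145114-34145173, plus strand: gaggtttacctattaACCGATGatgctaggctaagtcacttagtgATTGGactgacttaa
H2-DMb1, chr17:34153085-34153144, plus strand: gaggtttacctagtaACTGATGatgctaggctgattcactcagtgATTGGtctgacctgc
H2-Eb1, chr17:34305763-34305822, plus strand: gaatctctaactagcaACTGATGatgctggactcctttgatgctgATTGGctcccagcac
H2-Oa, chr17:34092291-34092350, plus strand: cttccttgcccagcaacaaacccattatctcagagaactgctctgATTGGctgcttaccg
H2-Ob, chr17:34238803-34238862, plus strand: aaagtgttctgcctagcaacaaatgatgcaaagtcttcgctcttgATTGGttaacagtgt
ATTGG began 90 bases before the start in H2-DMb2, 61 in H2-DMb1, 59 in H2-Eb1, 43 in H2-Oa and 57 in H2-Ob. The gap between the motifs was 23 bases in H2-DMb2 and H2-DMb1 and 22 in H2-Eb1. A match describes these letters and not bound factors, and no binding was measured.

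In the genome used for counting (GRCm39), 8 of the genes lie together on chromosome 17, from H2-Oa (34311314 to 34314208, plus strand) to H2-Eb1 (34524841 to 34535648, plus strand), and in this order of start: H2-Oa, H2-DMa, H2-DMb2, H2-DMb1, H2-Ob, H2-Ab1, H2-Aa, H2-Eb1. Of these, H2-Aa alone lies on the minus strand. Cd74 lies on chromosome 18 (60936920 to 60945724, plus strand) and Ciita on chromosome 16 (10297923 to 10346282, plus strand).

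Total counts per library ranged from 9667187 to 24152518. Every one of the 10 genes had at least 1260 counts in every library, so counting error was small beside the spread between libraries. Tet2, counted over the whole gene, was at 8.45 to 27.2 CPM (counts scaled to the same library total, with TMM of edgeR) in WT B-1a and at up to 29.1 CPM in TET2-KO B-1a libraries, with a log2 fold change of 0.45 (adjusted p = 0.689 by edgeR), and its counts check nothing about the deleted exons. Some WT libraries went against their subset label. Fcer2a (CD23), a marker of B-2 cells, was at 815 CPM in the library labelled WT B-1a 1 and at 598 CPM in the library labelled WT B-1b 2, beside 480 to 833 CPM in TET2-KO B-2 and 4.61 to 17.5 CPM in TET2-KO B-1a libraries. It was at 24.2 CPM in the library labelled WT B-2 1. Cd5, a marker of B-1a cells, was at 1.64 CPM in the library labelled WT B-1a 2 and at 18.7 CPM in the library labelled WT B-1b 1, beside 15.9 to 21.1 CPM in TET2-KO B-1a and 2.95 to 5.09 CPM in TET2-KO B-1b libraries. Results that rest on WT libraries are therefore given with all libraries and again without the 5 WT libraries numbered 1 or 2, and subsets were compared among TET2-KO libraries only. These 5 libraries had 18074 to 19255 genes with a count, beside 25898 to 29339 in the other WT libraries. TET2-KO B-1a 4 (18941 genes) and TET2-KO B-1b 3 (17816 genes) were as low, beside 23913 to 35576 in the other TET2-KO libraries. The highest levels of H2-Aa, H2-Ab1, H2-Eb1, Cd74, H2-DMa, H2-DMb2 and H2-Ob fell in the first of these sets. The highest level of Ciita was in TET2-KO B-1a 4. The part of library quality in these levels was not tested. Macrophages also express class II, and the summed level of 10 macrophage markers (led by Lyz2) was 4277 to 30128 CPM over all libraries. The summed level of 8 dendritic cell markers was 6.15 to 115 CPM. T cell markers (7) summed to 17.0 to 108 CPM and plasma cell markers (5) to 81.1 to 334 CPM. In bulk samples, fewer cells of a type and less RNA per cell cannot be told apart.

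Transcripts of the class II chains were among the most abundant in these cells. The 10 genes held 4.51% to 7.39% of all counts in a library, and Cd74 alone held 2.61% to 4.31%. Genes were compared per kilobase of the exon bases annotated for each gene, scaled to the same sum in every library (TPM). This length need not be that of the transcript made, and it was 3798 bases for H2-Aa and 1944 for H2-Eb1. The order of genes in TPM depends on it. Cd74 led with a median level of 44069 TPM over the 21 libraries (34284 to 53138), and its median rank among all genes was 2. The classical chains followed, with median levels of 7487 TPM for H2-Ab1, 5162 TPM for H2-Eb1 and 4606 TPM for H2-Aa, and with median ranks of 13, 20 and 24. H2-Eb1 was thus at a TPM level like that of the I-A chains, although its alpha chain gene H2-Ea was at 0 to 2.08 CPM in every library. By raw counts H2-Eb1 was below both I-A chains in every library.

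**Figure D1:**
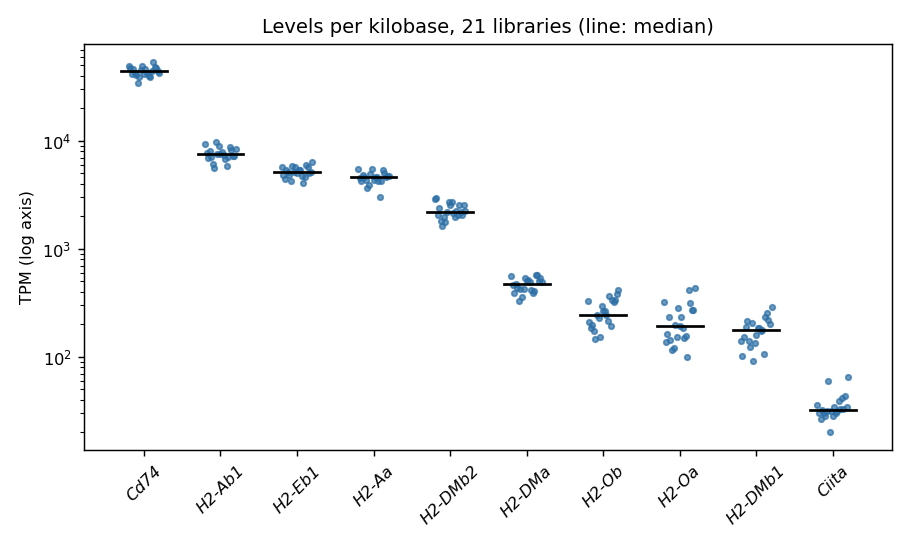
Level of each gene in TPM (log axis) in the 21 libraries, 1 point per library, with a line at the median. Cd74 sits above all others at a median of 44069 TPM, the chains between 4606 and 7487 TPM, and Ciita lowest at 32.4 TPM.

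Among the editors, H2-DMb2 had a median level of 2178 TPM (1609 to 2942) and H2-DMa one of 470 TPM (326 to 573), so the beta chain was above the alpha chain in every library. H2-DMb1, the other DM beta gene, was at 176 TPM (92.0 to 286). The DO chains were lower than the classical chains by more than a factor of 10, at 245 TPM for H2-Ob (145 to 411) and 194 TPM for H2-Oa (100.2 to 431). Ciita was the lowest at 32.4 TPM (20.1 to 64.6), with a median rank of 3001, and had the longest length of the members (9535 bases). In TPM the levels of H2-DMb1, H2-Oa and H2-Ob overlapped across libraries, and their order relative to each other does not stand out from this spread. By raw counts H2-Ob was above H2-DMb1 and H2-Oa in every library.

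The first question was whether loss of TET2 changes these genes within a subset. In no subset did any of the 10 genes pass the test between TET2-KO and WT (quasi-likelihood test of edgeR, adjusted by Benjamini-Hochberg over all genes tested and called at an adjusted p under 0.05). In B-1a cells 0 of 10 were called, against 7 of 13923 genes or 0.0503%. In B-1b cells 0 of 10 were called, against 0 of 14368 genes or 0.0%, and in B-2 cells 0 of 10, against 0 of 19786 genes or 0.0%. DESeq2 called 0 of the 10 in each subset as well, beside 186 of 38261, 60 of 36270 and 169 of 43239 genes. Without a filter on low counts edgeR called H2-DMb2 (adjusted p = 0.00148) and H2-Oa (adjusted p = 0.00265) in B-1a cells. This was beside 318 of 38366 genes, a larger set of genes tested than the 13923 above. At an unadjusted p under 0.05 there were 3 members in B-1a cells (H2-DMa, H2-DMb2 and H2-Oa) against 7.85% of genes, 2 in B-1b cells (H2-DMb2 and H2-Oa) against 5.48%, and 0 in B-2 cells against 8.86%.

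The differences that missed the threshold lay mostly on the lower side. In each subset 8 of 10 genes had a log2 fold change (TET2-KO over WT) below 0, against 47.6%, 50.5% and 41.7% of genes tested in the same order of subsets (B-1a, B-1b, B-2). The median log2 fold change of the 10 was -0.36 in B-1a, -0.41 in B-1b and -0.29 in B-2 cells, and that of all genes tested was 0.02, -0.01 and 0.18. Without the WT libraries numbered 1 and 2 the medians of the 10 were -0.20, -0.14 and -0.37, with 9, 8 and 10 genes below 0, and 1 WT library was then left in B-2 cells. Without TMM, scaled by library totals alone, the median of all genes moved to 0.14, 0.15 and 0.54, and that of the 10 genes to -0.25, -0.24 and 0.04, with 8, 7 and 4 genes below 0. The direction in B-2 cells thus depends on the scaling. Relative to the median of all genes, the median of the 10 was -0.38, -0.40 and -0.47 with TMM and -0.39, -0.39 and -0.50 without it. Over all alternatives this relative median ran from -0.65 to -0.22 in B-1a, from -0.52 to -0.14 in B-1b and from -1.50 to -0.16 in B-2 cells, where it was -0.16 with at least 10 counts in every library, -1.12 with DESeq2 and -1.50 without a filter. The genes share libraries and cells and are not independent of each other.

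**Figure D2:**
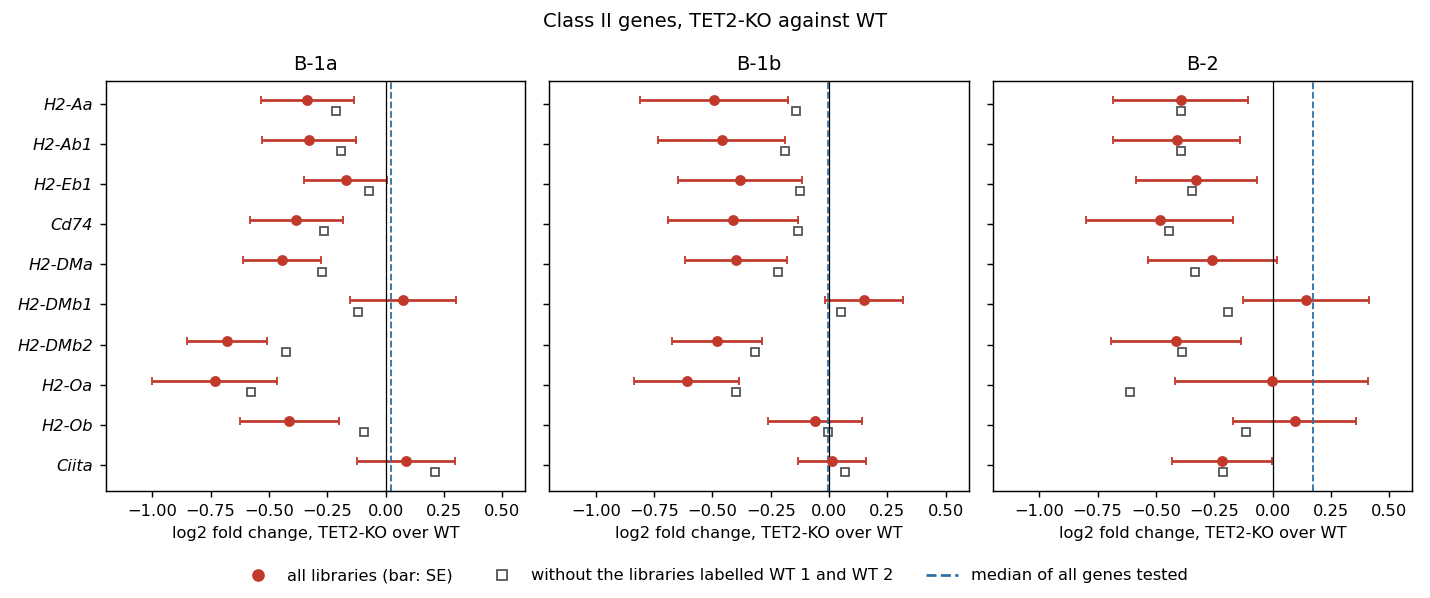
Log2 fold change of each gene, TET2-KO over WT, in the 3 subsets: filled points with SE bars use all libraries, open squares leave out the WT libraries numbered 1 and 2, and the dashed line marks the median of all genes tested. In B-1a and B-1b cells most open squares lie nearer to 0 than the filled points, and H2-Oa in B-2 cells moves from -0.0040 to -0.61.

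The classical chains form the I-A molecule and the beta chain of I-E. H2-Ab1, the I-A beta chain, was at 13674, 11439, 9702 and 10478 CPM in the libraries labelled WT B-1a 1 to 4 and at 9238, 9260, 6117 and 10532 CPM in TET2-KO B-1a 1 to 4. The groups overlapped, and the highest value belonged to the library labelled WT B-1a 1. In B-1b cells H2-Ab1 was at 13131, 12835, 9196 and 8644 CPM in WT 1 to 4 and at 9230, 8848 and 5353 CPM in TET2-KO 1 to 3. In B-2 cells it was at 10540 and 10240 CPM in WT 1 and 4 and at 8928, 7093, 8300 and 6426 CPM in TET2-KO 1 to 4. The B-1b groups overlapped and the B-2 groups did not. The log2 fold change of H2-Ab1 was -0.33 ± 0.20 (SE) in B-1a, -0.46 ± 0.27 in B-1b and -0.41 ± 0.27 in B-2 cells, with adjusted p values of 0.649, 0.838 and 0.540 (edgeR). H2-Aa, the I-A alpha chain, had log2 fold changes of -0.33, -0.50 and -0.39, and H2-Eb1 had -0.17, -0.38 and -0.33, and none passed the test. When the WT libraries numbered 1 and 2 were left out, the values were -0.19, -0.19 and -0.39 for H2-Ab1, -0.21, -0.14 and -0.39 for H2-Aa, and -0.073, -0.12 and -0.35 for H2-Eb1. The high WT values of H2-Ab1 in B-1b cells were those of the libraries left out.

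Cd74, the invariant chain that holds the class II groove, was at 47991, 45577, 37994 and 39135 CPM in the libraries labelled WT B-1a 1 to 4 and at 35798, 40299, 24419 and 27349 CPM in TET2-KO B-1a 1 to 4. In B-1b cells it was at 52337, 46031, 33691 and 33167 CPM in WT and at 34550, 33703 and 23014 CPM in TET2-KO libraries. In B-2 cells it was at 43364 and 40952 CPM in WT and at 34087, 30209, 33205 and 21181 CPM in TET2-KO libraries. The groups overlapped in B-1a and B-1b cells and did not in B-2 cells. The log2 fold change of Cd74 was -0.38 ± 0.20 (SE), -0.41 ± 0.28 and -0.48 ± 0.31 in the order above, with adjusted p values of 0.643, 0.839 and 0.539 (edgeR). The lowest Cd74 level of each subset belonged to TET2-KO B-1a 3, TET2-KO B-1b 3 and TET2-KO B-2 4. The summed macrophage markers were at 12759, 6258 and 4277 CPM in these libraries, beside up to 28640, 15101 and 19577 CPM in the other TET2-KO libraries of their groups, and at 4765 CPM in TET2-KO B-1a 4. The summed level of 4 B cell markers (Cd79a, Cd79b, Ms4a1 and Cd22) was 15331 CPM in TET2-KO B-1a 3 and 12682 CPM in TET2-KO B-1a 4, beside 18928 and 22965 CPM in TET2-KO B-1a 1 and 2. It was 13281 CPM in TET2-KO B-1b 3, beside 19976 and 21407 CPM in the other TET2-KO B-1b libraries, and 10127 CPM in TET2-KO B-2 4, beside 13653 to 16856 CPM in the other TET2-KO B-2 libraries. The lowest Cd74 level thus came with the lowest sum of B cell markers in B-1b and B-2 cells of TET2-KO mice and with the next to lowest in B-1a cells. The part of the macrophage and B cell transcripts in these differences was not tested. Cd74 had log2 fold changes of -0.26, -0.13 and -0.45 without the WT libraries numbered 1 and 2. Without TMM the log2 fold change of Cd74 was -0.28, -0.24 and -0.14.

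**Figure D3:**
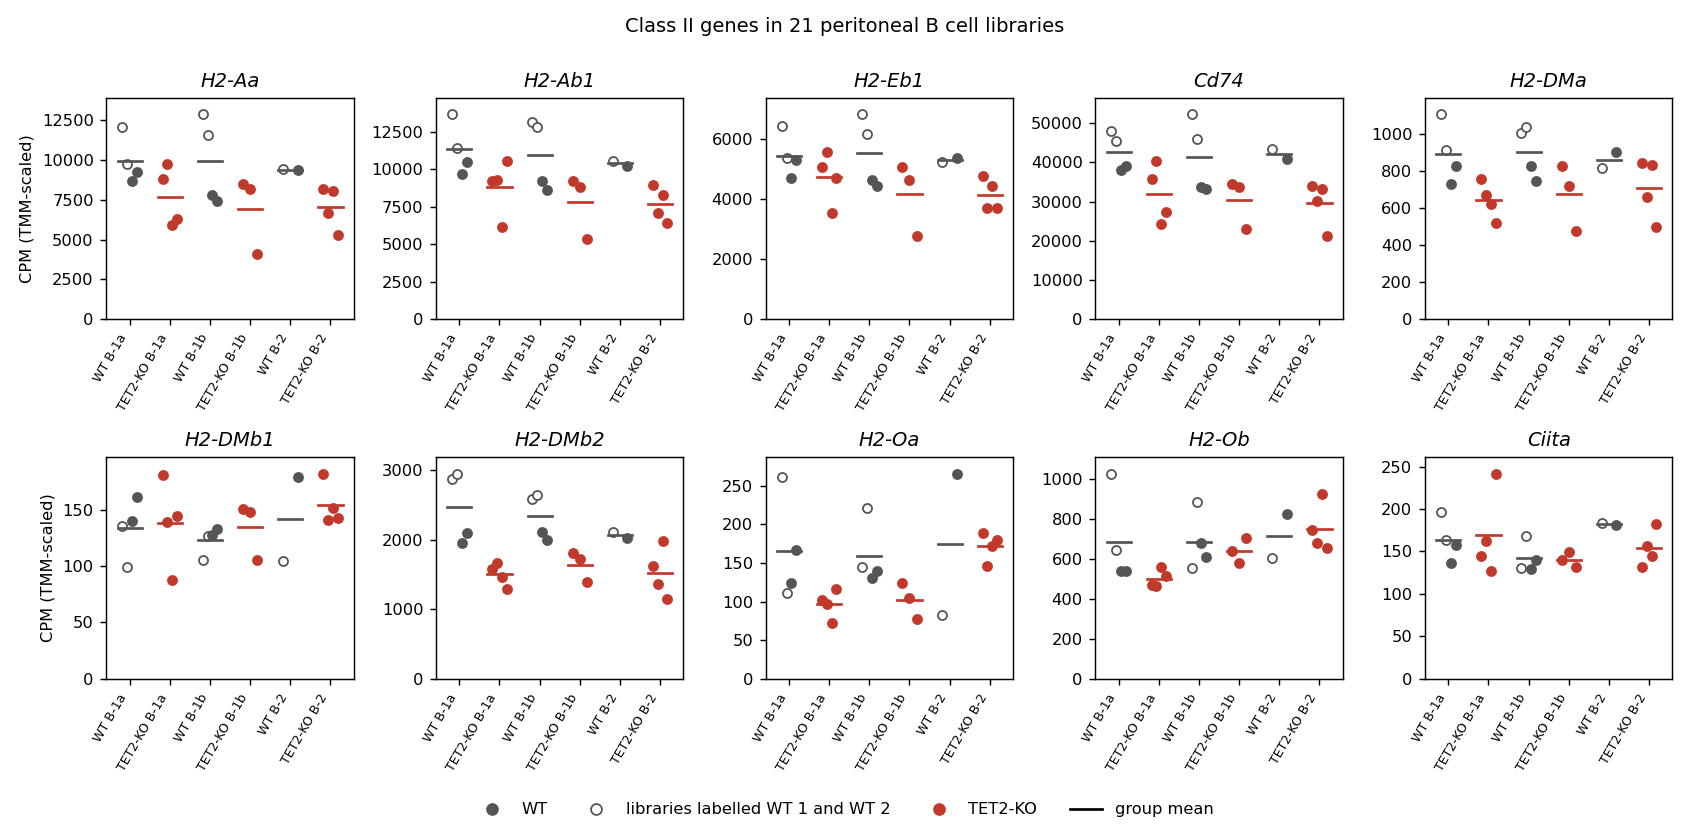
CPM (TMM-scaled, linear axes from 0) of each of the 10 genes in every library, by subset and genotype, with lines at group means; open circles are the WT libraries numbered 1 and 2. Open circles are the highest values of H2-Aa, H2-Ab1, H2-Eb1, Cd74, H2-DMa, H2-DMb2 and H2-Ob. H2-DMb2 is the gene whose TET2-KO points lie below all WT points in every subset.

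DM is the dimer that exchanges peptides in class II grooves, and mice have a pair of genes for its beta chain. H2-DMb2 was at 2880, 2952, 1950 and 2104 CPM in the libraries labelled WT B-1a 1 to 4 and at 1577, 1672, 1470 and 1288 CPM in TET2-KO B-1a 1 to 4. In B-1b cells it was at 2592, 2652, 2113 and 1995 CPM in WT and at 1812, 1720 and 1392 CPM in TET2-KO libraries. In B-2 cells it was at 2109 and 2030 CPM in WT and at 1618, 1364, 1984 and 1153 CPM in TET2-KO libraries. Every TET2-KO library was below every WT library of its subset, in all 3 subsets on this scale. The log2 fold change of H2-DMb2 was -0.68 ± 0.17 (SE) in B-1a cells (adjusted p = 0.297), -0.48 ± 0.19 in B-1b cells (adjusted p = 0.838) and -0.41 ± 0.28 in B-2 cells (adjusted p = 0.540), by edgeR. Without the WT libraries numbered 1 and 2 it was -0.42, -0.32 and -0.39, and without TMM it was -0.56, -0.32 and -0.08, with B-2 groups that then overlapped. H2-DMb2 is a gene that the study itself singled out from these libraries, so its place here is not independent evidence.

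H2-DMa, the alpha chain of DM, ranged from 730 to 1105 CPM in WT and from 517 to 756 CPM in TET2-KO B-1a libraries. Its log2 fold change was -0.44 ± 0.17 (SE) in B-1a cells (adjusted p = 0.600 by edgeR), -0.40 in B-1b and -0.26 in B-2 cells, and -0.27, -0.22 and -0.33 without the WT libraries numbered 1 and 2. H2-DMb1 did not share this side. It ranged from 98.9 to 161 CPM in WT and from 87.7 to 181 CPM in TET2-KO B-1a libraries, and its log2 fold changes were 0.07, 0.15 and 0.14. Without the WT libraries numbered 1 and 2 they were -0.12, 0.05 and -0.19.

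H2-DMb1 and H2-DMb2 are near copies of each other, and fragments that align to both were not counted, so the division of counts between them is uncertain. The per-kilobase share of H2-DMb2 in the sum of both was 92.6%, 93.0%, 95.3% and 96.6% in the WT B-1a libraries, in ascending order, and 89.4%, 89.6%, 92.0% and 94.2% in the TET2-KO B-1a libraries. The means were 94.4% ± 1.90 (SD, n = 4) and 91.3% ± 2.27 (SD, n = 4), which overlapped. In B-1b cells they were 94.7% ± 1.09 (SD, n = 4) and 92.2% ± 0.468 (SD, n = 3), without overlap, and in B-2 cells 93.4% and 90.3%, with overlap. Two-sided exact permutation tests gave p = 0.114 in B-1a, p = 0.0571 in B-1b (the smallest that 4 against 3 libraries allow) and p = 0.267 in B-2 cells (smallest 0.133), and each had an adjusted p of at least 0.514 over the 18 ratio tests. The share differed by -1.55, -1.62 and -1.35 percentage points without the WT libraries numbered 1 and 2, with p = 0.533, 0.200 and 0.800 by the same exact permutation. This share needs no scaling between libraries.

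DO is the B cell inhibitor of DM. H2-Oa, its alpha chain, was at 261, 111, 124 and 167 CPM in the libraries labelled WT B-1a 1 to 4 and at 102, 97.4, 72.5 and 116 CPM in TET2-KO B-1a 1 to 4. In B-1b cells it was at 145, 221, 131 and 140 CPM in WT and at 125, 105 and 77.7 CPM in TET2-KO libraries. The B-1a groups overlapped through TET2-KO 4 and the library labelled WT 2, and the B-1b groups did not. In B-2 cells H2-Oa was at 82.5 CPM in the library labelled WT B-2 1 and at 266 CPM in WT B-2 4, with TET2-KO libraries between them at 189, 146, 172 and 180 CPM. The log2 fold change of H2-Oa was -0.73 ± 0.27 (SE) in B-1a cells (adjusted p = 0.590), -0.61 ± 0.22 in B-1b cells (adjusted p = 0.838) and -0.0040 ± 0.41 in B-2 cells (adjusted p = 0.996), by edgeR. The B-2 value rests on which WT library is kept: it was -0.61 without the library labelled WT B-2 1 and 1.10 without WT B-2 4. In B-1a and B-1b cells it was -0.58 and -0.40 without the WT libraries numbered 1 and 2.

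H2-Ob, the beta chain of DO, was at 1026, 643, 538 and 539 CPM in the libraries labelled WT B-1a 1 to 4 and at 471, 463, 559 and 513 CPM in TET2-KO B-1a 1 to 4. The WT mean was set by the library labelled WT B-1a 1, and the groups overlapped. The log2 fold change of H2-Ob was -0.41 ± 0.21 (SE) in B-1a cells (adjusted p = 0.643 by edgeR) and -0.09 without the WT libraries numbered 1 and 2. In B-1b and B-2 cells it was -0.06 and 0.09, and -0.0044 and -0.11 without them.

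Ciita, the transactivator of class II genes, did not share the lower side of the chains in B-1 cells. It was at 196, 164, 137 and 157 CPM in the libraries labelled WT B-1a 1 to 4 and at 145, 162, 127 and 242 CPM in TET2-KO B-1a 1 to 4. The highest value of all belonged to TET2-KO B-1a 4, and without that library the log2 fold change went from 0.09 to -0.15. In B-1b cells Ciita was at 131, 168, 129 and 140 CPM in WT and at 140, 150 and 131 CPM in TET2-KO libraries, with a log2 fold change of 0.01 ± 0.15 (SE). In B-2 cells it was at 184 and 181 CPM in WT and at 132, 157, 145 and 182 CPM in TET2-KO libraries, with a log2 fold change of -0.22 ± 0.21 (SE). Adjusted p values were 0.899, 0.988 and 0.622 (edgeR), and the groups overlapped in each subset. Ciita had log2 fold changes of 0.21, 0.068 and -0.21 without the WT libraries numbered 1 and 2.

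Counted over the 10 genes, H2-DMb2 was the member with all TET2-KO libraries below all WT libraries in B-1a cells, beside 3.38% of genes tested. In B-1b cells there were 2 (H2-Oa and H2-DMb2), beside 3.94%, and in B-2 cells there were 5 (H2-DMb2, H2-Ab1, H2-Aa, H2-Eb1 and Cd74), beside 7.26%. No member lay above in any subset, beside 2.18%, 3.74% and 12.7% of genes. Without the WT libraries numbered 1 and 2 the numbers were 2 in B-1a and 2 in B-1b cells, beside 7.72% and 10.7% of genes. WT B-2 4 was then the only WT library in B-2 cells, so a number there would say little. Scaled by library totals alone, with all libraries, the numbers were 1 (H2-DMb2, beside 1.81%), 2 (H2-Ab1 and H2-DMb2, beside 1.5%) and 0 (beside 1.79%). The 5 members in B-2 cells were thus apart with TMM and not by library totals.

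An interaction term over all 15 B-1 libraries asked whether the TET2-KO effect differs between B-1a and B-1b cells. None of the 10 genes was called, beside 0 of 15972 genes or 0.0%. At an unadjusted p under 0.05 there were 0 members and 250 genes or 1.57% (edgeR). DESeq2 called 0 members and 1 of 41543 genes. The differences of the log2 fold changes ran from -0.36 (H2-Ob, B-1a below B-1b) to 0.20 (H2-Eb1), each with an adjusted p of 1.00. They ran from -0.18 to 0.14 without the WT libraries numbered 1 and 2, with 8 of 10 below 0 and 0 called.

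The second question was how class II genes differ between the subsets. Among TET2-KO libraries, the DO genes were lower in B-1a than in B-2 cells, whereas no classical chain, DM gene, Cd74 or Ciita passed the test. H2-Oa was at 102, 97.4, 72.5 and 116 CPM in TET2-KO B-1a libraries and at 189, 146, 172 and 180 CPM in TET2-KO B-2 libraries. Every B-1a library was below every B-2 library. The log2 fold change (B-1a over B-2) of H2-Oa was -0.86 ± 0.19 (SE, adjusted p = 0.0146 by edgeR's quasi-likelihood test). H2-Ob was at 471, 463, 559 and 513 CPM in B-1a and at 742, 680, 922 and 655 CPM in B-2 libraries, again without overlap. Its log2 fold change was -0.62 ± 0.17 (SE, adjusted p = 0.0429). These were the 2 of 10 genes called, both lower, beside 1080 of 18555 genes or 5.82% (604 higher and 476 lower, the lower ones 2.57%). They were also the 2 members without overlap, beside 10.1% of genes lower in this way. Scaled by library totals alone 4 members (H2-DMa, H2-DMb2, H2-Oa and H2-Ob) did not overlap, beside 14.7% of genes.

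**Figure D4:**
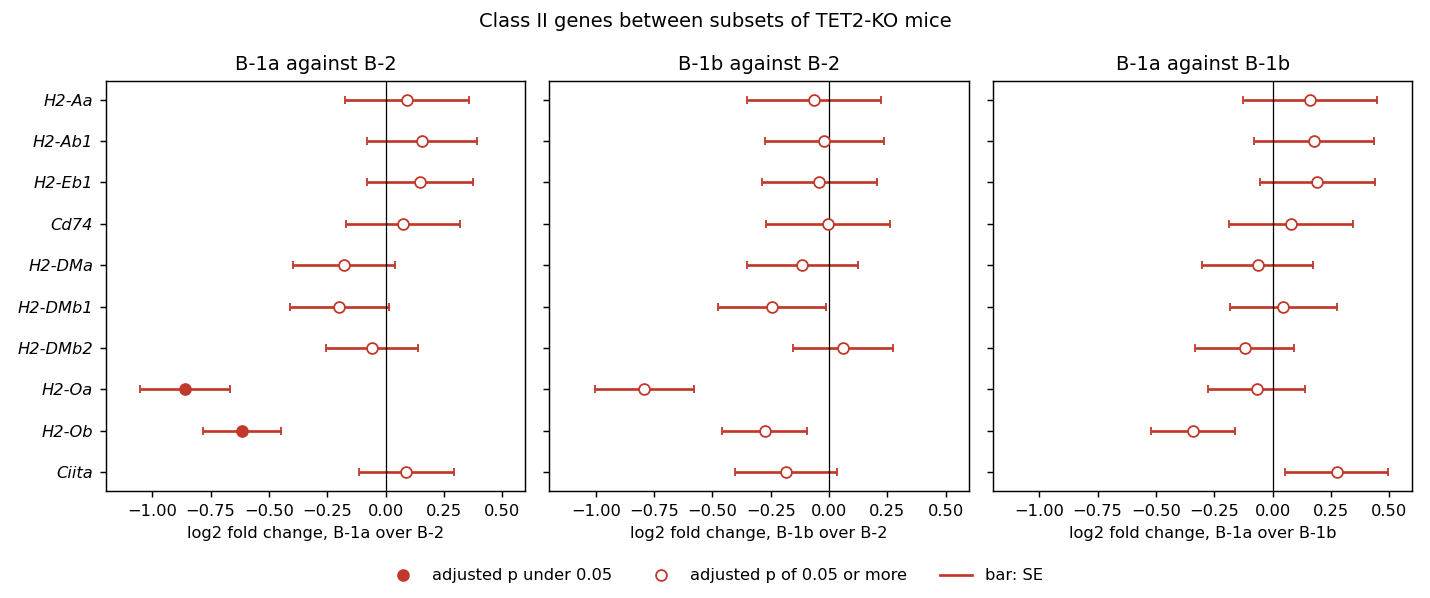
Log2 fold change with SE bars of each gene between subsets of TET2-KO mice, for B-1a over B-2, B-1b over B-2 and B-1a over B-1b; filled points have an adjusted p under 0.05. H2-Oa and H2-Ob are the filled points, at -0.86 and -0.62 in B-1a over B-2, and the other genes of that comparison lie between -0.20 and 0.16.

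The call of H2-Oa held in 16 of 19 other settings (log2 fold change -1.13 to -0.74, adjusted p 0.000219 to 0.120). It was lost without TET2-KO B-1a 2 or 3, with adjusted p values of 0.0553 and 0.0561, and in a fit of all 21 libraries, with an adjusted p of 0.120. The call of H2-Ob held in 10 of 19 (adjusted p 0.000159 to 0.148) and was lost in that fit and without any 1 of 8 libraries (TET2-KO B-1a 1, 2, 3 or 4, B-1b 1 or 2, B-2 1 or 2), with adjusted p values up to 0.148. The direction of both held in each of the 19. Libraries of different subsets that share a number deviated together here. With the number as a block in edgeR the adjusted p was 0.00235 for H2-Oa and 0.0106 for H2-Ob, with 1638 of 18555 genes called. Scaled by library totals alone the 2 genes were at -1.13 and -0.86, all 10 genes were below 0, and the genes called split into 365 higher and 729 lower. That scaling moved the median log2 fold change of all genes from -0.05 to -0.32. Relative to it the median of the 10 genes was 0.06 with TMM and 0.07 without. It was -0.13 with at least 10 counts in every library (8 of 10 below), 0.84 with DESeq2 and 1.05 without a filter, so its sign depends on the setting.

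Between TET2-KO B-1b and B-2 cells 0 of 10 genes were called, beside 399 of 18555 genes or 2.15%. The same B-2 libraries enter here. H2-Oa was at 125, 105 and 77.7 CPM in the B-1b libraries, below all B-2 libraries, beside 11.3% of genes. Its log2 fold change was -0.79 ± 0.21 (SE, adjusted p = 0.0686 by edgeR), and it was called in 7 of 19 other settings (adjusted p 0.00320 to 0.206). These included DESeq2 (0.00320), at least 10 counts in every library (0.0178), library totals (0.0225), no filter (0.0233), RLE size factors (0.0311) and the fit without TET2-KO B-1a 4 (0.0423), all adjusted p values. In this order 2872 of 44479, 404 of 10906, 341 of 18555, 870 of 44737, 397 of 18555 and 768 of 18468 genes were called. The fit with the replicate number as a block called H2-Oa as well, beside 667 of 18555 genes. By library totals H2-DMb1 and H2-Oa were below all B-2 libraries, beside 15.1% of genes. At an unadjusted p under 0.05 H2-Oa was the 1 member, beside 3629 genes or 19.6%. H2-Ob was at 637, 579 and 702 CPM in the B-1b libraries, with a log2 fold change of -0.27 ± 0.18 (SE, adjusted p = 0.418), and overlapped with B-2 cells.

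Between TET2-KO B-1a and B-1b cells 0 of 10 genes were called, beside 38 of 18555 genes or 0.205%. At an unadjusted p under 0.05 there were 0 members and 1072 genes or 5.78% (edgeR), and DESeq2 called 0 members and 141 of 44479 genes. The log2 fold changes (B-1a over B-1b) ran from -0.34 ± 0.18 (SE) for H2-Ob to 0.27 ± 0.22 for Ciita, with adjusted p values from 0.858 to 0.975 (edgeR). H2-Ob was the member with all B-1a libraries below all B-1b libraries, beside 3.07% of genes. Scaled by library totals alone it was H2-DMb2, beside 3.28% of genes. H2-Oa differed by -0.07 ± 0.21 (SE, adjusted p = 0.962), so a difference in H2-Oa between the B-1 subsets was not detected. With the replicate number as a block 103 of 18555 genes were called, and no member.

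In the libraries that went against their label, H2-Oa was at levels like those of libraries with a like level of the CD23 transcript. The libraries with Fcer2a at or above 480 CPM, which were TET2-KO B-2 1 to 4, WT B-2 4 and those labelled WT B-1a 1 and WT B-1b 2, had H2-Oa at 146 to 266 CPM. All others, with Fcer2a at or below 71.1 CPM, had H2-Oa at 72.5 to 167 CPM. The library labelled WT B-2 1 was among the latter, with H2-Oa at 82.5 CPM. The ranges overlapped through WT B-1a 4 and TET2-KO B-2 2. These values are a description of libraries that were set apart by their markers after the values had been seen.

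**Figure D5:**
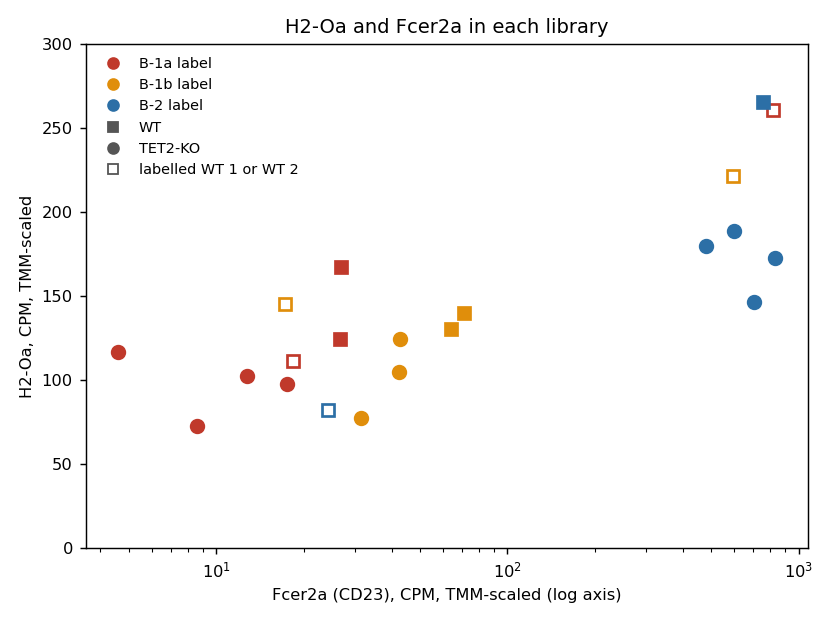
H2-Oa (CPM, linear axis) against Fcer2a (CPM, log axis) in each of the 21 libraries, coloured by subset label, with squares for WT, circles for TET2-KO and open squares for the libraries labelled WT 1 or WT 2. The open squares of B-1a and B-1b at the right, with H2-Oa at 261 and 221 CPM, stand beside the B-2 libraries.

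Set against DM within a library, the difference in DO was put to an exact test that could not reach an adjusted p under 0.05. The log2 ratio of H2-Oa to H2-DMa per kilobase was -1.43 ± 0.41 (SD, n = 4) in B-1a, -1.41 ± 0.08 (SD, n = 3) in B-1b and -0.72 ± 0.37 (SD, n = 4) in B-2 libraries. The B-1b and B-2 values did not overlap, and TET2-KO B-1a 4, at -0.86, lay within the B-2 range. This is a ratio in B-1a of 0.612 times that in B-2 cells (p = 0.114 by an exact two-sided permutation, where 0.0286 is the smallest possible) and in B-1b of 0.621 times (p = 0.0571 by exact permutation, the smallest possible). Both had an adjusted p of 0.514 over the 18 ratio tests. With these group sizes no adjusted p under 0.05 was possible in the 18 tests, so the adjusted values decide nothing. Cd74 over H2-Ab1, the invariant chain against a chain that it binds, was 5.56-fold per kilobase in TET2-KO B-1a, 6.03-fold in TET2-KO B-1b and 5.85-fold in TET2-KO B-2 libraries, and 5.78-fold, 5.76-fold and 6.20-fold in WT. None of its 6 exact permutation tests had a p under 0.457. TET2-KO B-1a 4 had the lowest ratio of Cd74 to H2-Ab1 of the 21 libraries (3.97-fold, others 5.04 to 6.66) and the lowest of H2-Aa to H2-Ab1 (0.403-fold, others 0.516 to 0.712). It also had the highest Ciita, at 242 CPM, and summed macrophage markers of 4765 CPM, whose part was not tested. Between TET2-KO and WT, and without the WT libraries numbered 1 and 2, the log2 ratio differed by -0.30, -0.17 and -0.25 for H2-Oa over H2-DMa and by -0.073, 0.073 and -0.064 for Cd74 over H2-Ab1. These ratios are of transcripts and not of protein.

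The class II genes varied with H2-Ab1 across the 21 libraries to different degrees. Pearson's r of log2 CPM with H2-Ab1 was 0.96 for H2-Eb1, 0.91 for H2-Aa, 0.90 for Cd74, 0.80 for H2-DMa and 0.79 for H2-DMb2. It was 0.46 for H2-Oa, 0.37 for Ciita, 0.14 for H2-Ob and 0.12 for H2-DMb1. Over the 16 libraries not labelled WT 1 or WT 2 these were 0.94, 0.84, 0.81, 0.64 and 0.59, and then 0.42, 0.34, -0.23 and 0.69. These are descriptions over libraries that share cells, depth and scaling. The 5 other genes most like H2-Ab1 over 21 libraries were Pfn1 (0.93), Psmb3, Utp23, Spag7 and Mrpl51, and over 16 libraries Tamm41 (0.92), Sat1, Ndufb8, Chrac1 and Slc25a3, so none was shared. Those most like Ciita were Plekho1 (0.79), Ghdc (0.78), Dexi (0.74), Mphosph8 and Rcc1l over 21 libraries, and Ghdc (0.94), Tnk2 (0.88), 2310033P09Rik, 2010004M13Rik and Dot1l over 16. Dexi overlaps Ciita on the other strand, and 3.45% of the exon bases of Ciita are shared with it, so their counts are not independent. H2-Oa was taken as a reference after its values were seen, and the genes most like it over 21 libraries were Ublcp1 (0.91), Lta (0.91), H2-Eb2 (0.91), Rras2 and Cd40 (0.89).

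Other genes of the pathway were read from lists that hold the X and Y box factors (7 genes), regulators of Ciita (8), peptide supply and class II turnover (10), costimulation (5), class I presentation (13) and other class II loci (2). Between TET2-KO and WT, 0 genes of these lists were called in any subset or in the interaction (edgeR). The number was 0 as well without the WT libraries numbered 1 and 2. The X and Y box factors (Rfx5, Rfxap, Rfxank, Nfya, Nfyb, Nfyc and Creb1) had median log2 fold changes of -0.03, -0.09 and -0.13, nearer to 0 than those of the 10 class II genes, and 0.13, -0.10 and -0.18 without those libraries. Class I presentation genes were below 0 in 10, 10 and 11 of 13, with medians of -0.22, -0.15 and -0.24. Without those libraries they were below 0 in 5, 6 and 7 of 13, with medians of 0.0048, 0.0082 and -0.040. H2-Eb2, a class II beta gene beside H2-Eb1, was at 31.6, 13.1, 10.9 and 14.4 CPM in the libraries labelled WT B-1a 1 to 4 and at 6.86 to 8.43 CPM in TET2-KO B-1a libraries. In B-1b cells it was at 11.9, 31.1, 15.8 and 16.9 CPM in WT 1 to 4 and at 5.89 to 12.1 CPM in TET2-KO libraries. The highest WT value of each belonged to a library whose Fcer2a level went against its label. H2-Eb2 had a log2 fold change of -1.21 ± 0.33 (SE) in B-1a cells (adjusted p = 0.361) and of -1.15 ± 0.38 in B-1b cells (adjusted p = 0.838), by edgeR. These were -0.77 and -0.96 without the WT libraries numbered 1 and 2. In B-2 cells the log2 fold change of H2-Eb2 was not below 0 with all libraries. It was -0.76 there with WT B-2 4 as the only WT library. Ifi30, the thiol reductase that unfolds endocytosed proteins, was at 526, 932, 582 and 614 CPM in the libraries labelled WT B-1a 1 to 4 and at 529, 375, 465 and 372 CPM in TET2-KO B-1a 1 to 4. In B-1b cells it was at 952, 561, 579 and 490 CPM in WT and at 531, 369 and 287 CPM in TET2-KO libraries. In B-2 cells it was at 702 CPM in the library labelled WT B-2 1 and at 376 CPM in WT B-2 4, and at 267, 143, 252 and 181 CPM in TET2-KO libraries. The groups overlapped in B-1a and B-1b cells and did not in B-2 cells. Its log2 fold changes were -0.57, -0.68 and -1.33, with adjusted p values of 0.577, 0.838 and 0.531 (edgeR), and -0.45, -0.44 and -0.82 without the WT libraries numbered 1 and 2.

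Between TET2-KO B-1a and B-2 cells, 0 of 7 X and Y box factors were called, with a median log2 fold change of 0.13. Of the regulators of Ciita, 2 of 8 were higher and 1 was lower. Zbtb32, a repressor of Ciita, was at 356 to 546 CPM in B-1a and at 53.3 to 99.3 CPM in B-2 libraries, a log2 fold change of 2.60 ± 0.22 (SE, adjusted p = 3.36e-06). Prdm1, the plasma cell repressor of Ciita, was at 4.44 to 7.89 CPM and 0.752 to 2.22 CPM, a log2 fold change of 1.93 ± 0.46 (SE, adjusted p = 0.0209). Irf8 was lower, at 88.5 to 145 CPM against 237 to 356 CPM (log2 fold change -1.43 ± 0.22, SE, adjusted p = 0.000752). Ciita itself differed by 0.09 ± 0.20 (SE, adjusted p = 0.833), with B-1a libraries at 127 to 242 CPM and B-2 libraries at 132 to 182 CPM. Of the other lists, Ifi30 was the 1 of 10 peptide supply genes called (1.01 ± 0.24, SE, adjusted p = 0.0194). Cd80 was higher (1.63 ± 0.28, SE, adjusted p = 0.00191) and Icosl lower (-3.10 ± 0.26, SE, adjusted p = 3.25e-06) among 5 costimulation genes. Class I presentation had 0 of 13 called. H2-Eb2 was lower, at 6.86 to 8.43 CPM against 23.0 to 32.0 CPM (-1.94 ± 0.25, SE, adjusted p = 0.000166), all by edgeR.

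In B-1b against B-2 cells of TET2-KO mice Zbtb32 (2.57 ± 0.23, SE, adjusted p = 2.53e-05) and Cd80 (1.23 ± 0.29, SE, adjusted p = 0.0392) were higher, and Icosl (-2.73 ± 0.29, SE, adjusted p = 7.87e-05) and H2-Eb2 (-1.77 ± 0.27, SE, adjusted p = 0.00203) were lower on the log2 scale by edgeR. These were the called genes of the lists. Between B-1a and B-1b cells none of the list genes was called. Zbtb32 is also among the B-1 cell markers used here and Prdm1 among the plasma cell markers, so these differences are not independent of the identity of the sorted cells. The summed macrophage markers were at 4765 to 28640 CPM in TET2-KO B-1a, 6258 to 15101 CPM in TET2-KO B-1b and 4277 to 19577 CPM in B-2 libraries of TET2-KO mice, and the summed dendritic cell markers at 6.15 to 17.5, 14.2 to 20.6 and 25.4 to 60.3 CPM. Their part in these differences was not tested.

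Counting without regard to strand touches some of these genes. In the annotation 22.8% of the exon bases of H2-Oa are shared with BC051537, a long noncoding RNA on the other strand, and 10.4% of those of H2-DMa with Brd2. Fragments that overlap several genes were not counted, so the levels of H2-Oa and H2-DMa leave out reads from these stretches, and reads of a gene and its antisense partner cannot be told apart there. For Cd74 the shared stretch was 0.715%, with a microRNA gene. Ciita shares a stretch with Dexi, as given above. The remaining 6 members shared no exon bases with another gene, H2-DMb1 and H2-DMb2 included.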

How the data were processed

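The authors deposited, per library, raw counts of fragments on each of 56953 genes, without normalization. Per the methods and labels, the authors used fastp for trimming, STAR with GRCm39 for alignment and featureCounts 1.6.1 with GENCODE vM32 for unstranded counting. Fragments with several alignments or several genes were not counted. Library preparation is described as amplified full-length cDNA in the methods and as mRNA selected with poly-T and primed at random in the labels. Symbols were matched for 56310 identifiers through GENCODE vM39. Total counts were 9667187 to 24152518 per library, which limits precision for rare genes more than for these.

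Genes were tested on the whole table in R 4.3.3 with limma 3.58.1 and edgeR 4.0.16, using TMM, filterByExpr, the quasi-likelihood test with robust fits, and adjustment after Benjamini and Hochberg, called at 0.05. Each subset was fitted alone for TET2-KO against WT, the 15 B-1 libraries together for the interaction, and the 11 TET2-KO libraries together for subsets. All 10 genes passed the filter in each fit. CPM were scaled by TMM over all 21 libraries, and TPM are counts per kilobase of the gene length in the files. Log2 CPM for correlations used a prior count of 2, and genes most like a reference had a mean of at least 10 CPM. Ratios were tested by two-sided exact permutation with adjustment over 18 tests. The code was tested on simulated data. Named genes are the 10 members, the called genes of the pathway lists (at most 3 per list), list genes beside a member's result, and the 5 genes most like Ciita and H2-Ab1. Promoters are from RefSeq. The members and lists were chosen with earlier results of these data known.

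Alternatives were DESeq2 1.42.0, RLE size factors, TMM without immunoglobulin genes, the table without a low-count filter, a minimum of 10 counts in each library, 1 fit of all 21 libraries, a block by replicate number, leaving out single libraries, and leaving out the WT libraries numbered 1 and 2. Scaling by library totals alone was added after seeing the data. The numbers pair TET2-KO B-1a with B-1b libraries (correlation of deviations from group means over 8198 genes 0.29 to 0.51) and with B-2 libraries (0.32 to 0.66). Between TET2-KO B-1b and B-2 libraries (0.05 to 0.49), libraries 1 and 2 correlated best with their own number and library 3 did not. The numbers do not pair genotypes (-0.11 to 0.32). H2-Oa as a further reference for likeness was chosen after its values were seen. Comparing the DM beta proteins was planned and not run.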

Additional observations from a re-analysis of the deposited data

Results flagged for a closer look

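H2-Oa was at 221 CPM in the library labelled WT B-1b 2, beside 131 to 145 CPM in the other WT B-1b libraries, a gap of 0.840 of the range of the group. Fcer2a was at 598 CPM in the same library.

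The log2 ratio of H2-Oa to H2-DMa per kilobase was -0.18 in TET2-KO B-2 4, beside -0.98 to -0.86 in the other TET2-KO B-2 libraries, a gap of 0.852 of the range. In that library H2-DMa was at 498 CPM, against 658 to 840 CPM in the others, while H2-Oa was at 180 CPM, within their 146 to 189 CPM. Both values were set apart by Dixon's test in groups of 4 libraries (critical value 0.829). It was applied to 52 groups, and chance sets apart about 1 in 20.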

How the results depend on the processing

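Counts of genes called for TET2-KO against WT in the B-1a, B-1b and B-2 subsets and for the interaction were 186, 60, 169 and 1 with DESeq2 and 318, 131, 167 and 144 without a filter on low counts. For B-1a over B-2, B-1b over B-2 and B-1a over B-1b they were 3478, 2872 and 141 with DESeq2 (852 higher and 2626 lower, 539 and 2333, 18 and 123) and 1699, 870 and 123 without a filter. With all 21 libraries in 1 fit, B-1a TET2-KO against WT gave 80 genes, B-1b over B-2 gave 7 and B-1a over B-1b gave 6. With the replicate block, B-1a TET2-KO against WT gave 48, B-1a over B-2 gave 1638, B-1b over B-2 gave 667 and B-1a over B-1b gave 103. Scaled by library totals, B-1a over B-1b gave 58. Without the WT libraries numbered 1 and 2, B-1a TET2-KO against WT gave 0. The cause of these changes was not tested.

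Without a filter, 2 members were called in B-1a cells, H2-DMb2 (adjusted p = 0.00148) and H2-Oa (adjusted p = 0.00265), by edgeR. This was beside 318 of 38366 genes. Of B-1a over B-2, 0 members were called in the fit of all 21 libraries, beside 780 of 22597 genes. Of B-1b over B-2, 1 member (H2-Oa) was called with DESeq2, RLE size factors, no filter, at least 10 counts, library totals and the replicate block. In this order 2872 of 44479, 397 of 18555, 870 of 44737, 404 of 10906, 341 of 18555 and 667 of 18555 genes were called. The block changed no other call of a member. For TET2-KO against WT, where the numbers do not pair the libraries, 3 of 9 libraries correlated best with the library of their own number.

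Leaving out 1 library gave 0 to 6 genes in B-1a, 0 to 0 in B-1b and 0 to 576 in B-2 cells (576 without WT B-2 4), and 608 to 2015, 177 to 768 and 15 to 57 genes between subsets. Members called were 0 to 2 for B-1a over B-2 and 0 to 1 for B-1b over B-2. Log2 ratios of H2-Oa to H2-DMa ranged from -0.21 to 0.10 for B-1a over B-1b and from -0.25 to 1.29 for TET2-KO over WT in B-2 cells, where the value was -0.25 without the library labelled WT B-2 1. Those of Cd74 to H2-Ab1 ranged from -0.14 to 0.11 for TET2-KO over WT in B-1a cells, and from -0.16 to 0.088, -0.029 to 0.095 and -0.20 to 0.045 between subsets.

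Log2 fold changes of single genes also changed sign between TET2-KO and WT. Leaving out 1 library gave -0.081 to 0.24 for H2-DMb1 and -0.15 to 0.20 for Ciita in B-1a cells (-0.057, -0.081 and -0.15 without WT 2, TET2-KO 1 and TET2-KO 4), -0.16 to 0.080 for H2-Ob and -0.044 to 0.096 for Ciita in B-1b cells (0.080 without WT 2; -0.033, -0.020 and -0.044 without WT 1, WT 3 and TET2-KO 2), and -0.19 to 0.61 for H2-DMb1, -0.11 to 0.37 for H2-Ob and -0.61 to 1.10 for H2-Oa in B-2 cells (0.093 and 0.0015 for H2-Oa without TET2-KO 2 and TET2-KO 3). Without the WT libraries numbered 1 and 2, H2-DMb1 was at -0.12 in B-1a cells and at -0.19 in B-2 cells, and H2-Ob at -0.11 in B-2 cells. In B-1b cells H2-Ob was at 0.10 by library totals, and Ciita at -0.019 without a filter and -0.017 in the fit of 21 libraries. H2-Oa in B-2 cells was at 0.040 with DESeq2, 0.055 with RLE, 0.12 with at least 10 counts, 0.35 with the replicate block and 0.29 by library totals, by which H2-Eb1, H2-DMa and Ciita were at 0.024, 0.063 and 0.18. Each of these genes had at least 1260 counts in every library. The parts of the few libraries per group, the labels of 5 WT libraries, library quality and the scaling in these changes were not tested.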
